A study of Mus musculus with 12 samples.

Results

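The 10 genes described here encode enzymes of glycolysis and lactate formation, and they were taken by name from the gene and transcript tables of 12 E18 whole mouse brains. They are Hk1, Gpi1, Pfkp, Aldoa, Aldoc, Tpi1, Gapdh, Pgk1, Eno1 and Ldha, and they correspond to 11 of 13770 gene models, because Aldoa has 2 models that were kept apart, and to 35 of 29097 transcripts. All 11 gene models reached a mean of 1 FPKM (fragments scaled to transcript length and to the number of mapped fragments), the minimum for testing. Glycolysis is the cytosolic pathway that splits glucose into pyruvate. Hexokinase traps glucose in the cell, phosphofructokinase commits it to the pathway, the later enzymes return ATP and NADH, and lactate dehydrogenase regenerates NAD by turning pyruvate into lactate. The fetal brain depends heavily on this route, and in the mature brain astrocytes are known for active glycolysis.

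The brains were C57BL/6J embryos at embryonic day 18. The 6 PAE (prenatal alcohol exposure) brains came from dams given 10% ethanol with 0.066% saccharin to drink for 4 h per day, during mating and throughout pregnancy, and the 6 SAC brains came from dams given 0.066% saccharin alone on the same schedule. Each treatment had 3 female and 3 male brains. The PAE brains were ES19-4, ES23-7 and ES27-4 (female) and ES19-8, ES23-4 and ES27-1 (male), and the SAC brains were SAC12-5, SAC26-5 and SAC26-7 (female) and SAC12-6, SAC12-7 and SAC26-8 (male). Exposure was by voluntary drinking, so it was not a fixed dose. The drinks were given to dams, and the sources used here do not say whether brains that share a name prefix came from 1 dam. The main tests treat each brain as independent, so their p-values could be too small if brains of a prefix shared a dam.

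The sums of gene FPKM were alike, 218026 to 232863 in PAE and 221804 to 228633 in SAC brains. Read depth is unknown from FPKM, so no counting interval could be given. Neuronal markers were present in every brain, with a summed level over 6 genes of 857 to 958 FPKM in PAE and 894 to 930 FPKM in SAC brains. A pair of brains stood apart from their treatment in the level of 15 Hox genes, which mark the hindbrain and the spinal cord. The mean Hox level was 4.32 FPKM in ES19-4 and 0.00317 to 0.0119 FPKM in the other 5 PAE brains, against 0.0309 FPKM in SAC12-6 and 1.72 to 4.82 FPKM in the other 5 SAC brains. In the other 10 brains the Hox level went with the treatment, so for them the Hox level and the treatment cannot be told apart.

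Glycolytic enzyme mRNAs tended to be lower in PAE than in SAC brains, and 3 of the 11 gene models passed the test. Gpi1, Eno1 and Ldha fell in PAE brains by 0.32, 0.31 and 0.18 on the log2 scale. In all, 10 of 11 models had a negative log2 fold change and the median over the models was -0.27, while the median over all 12346 genes tested was 0.01. The background share of genes that fell at an adjusted p under 0.05 was 5.22%, and 4.34% rose. None of the 11 models rose. At an unadjusted p under 0.05 from limma 9 of the 11 models were lower, against 14.8% of all genes. The members were chosen with earlier results of these data known, so these shares describe them and are not a test of the group. The background of all genes was also not matched to the members for level. In no model were all 6 PAE brains below all 6 SAC brains, a pattern that 1.92% of all genes had. The samples are bulk tissue, so fewer cells of a type and less RNA per cell cannot be told apart.

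**Figure D1:**
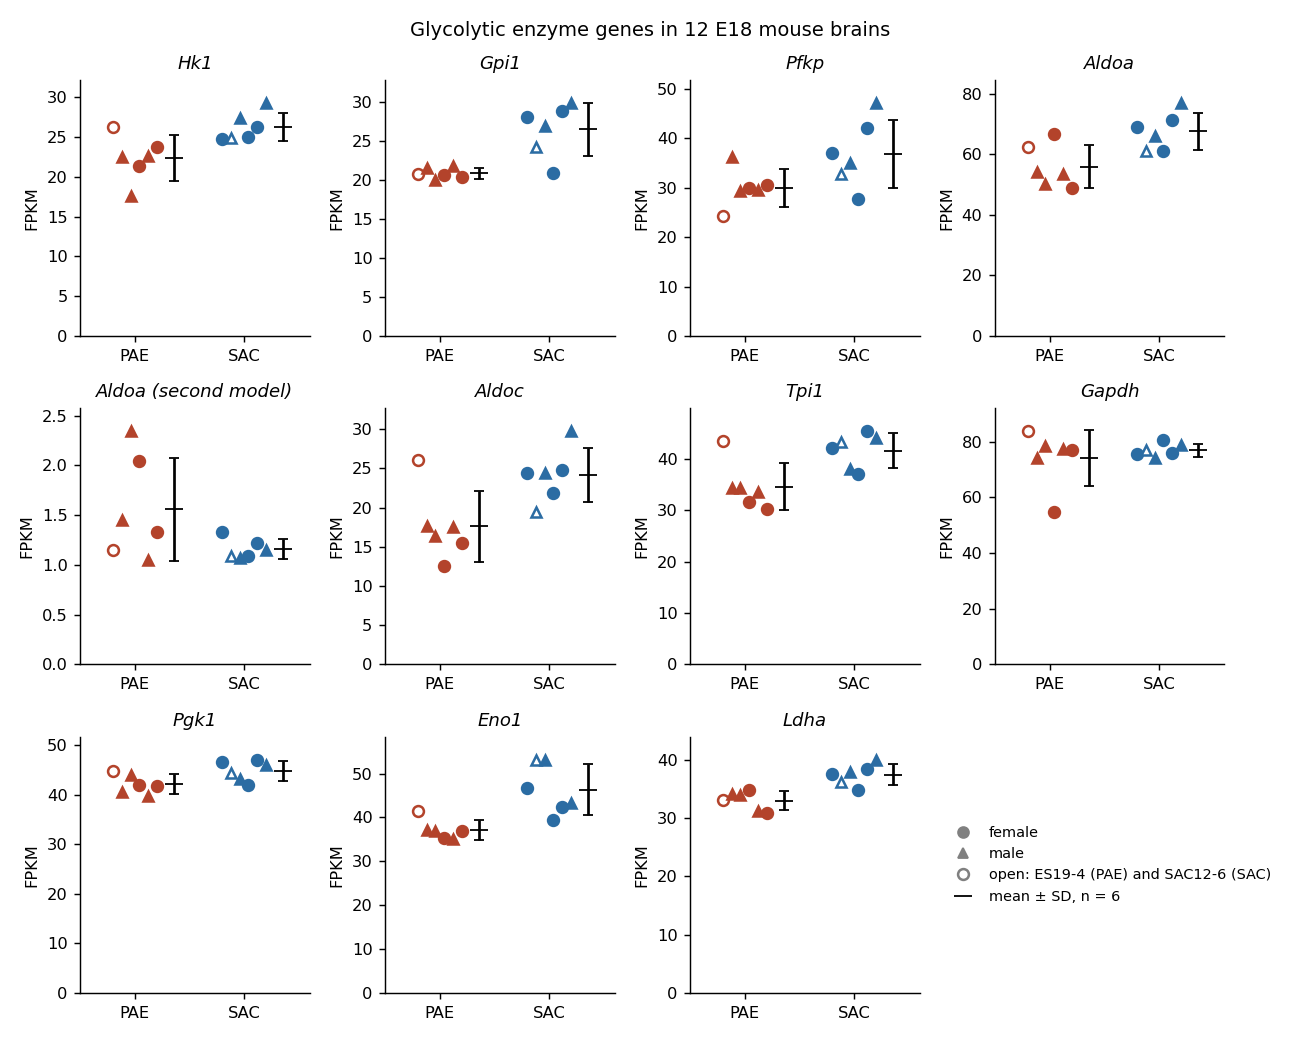
FPKM (vertical axes, from 0) of each of the 11 gene models in the 6 PAE brains (left, red) and the 6 SAC brains (right, blue), with circles for females, triangles for males, open symbols for ES19-4 and SAC12-6, and the mean ± SD beside each group. For Gpi1 the PAE brains lie between 20.0 and 21.9 FPKM, and 5 of the 6 SAC brains lie above them.

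The upstream sequences of the 3 genes that fell are shown because these are the members that passed the test, with that of Gapdh as a member that did not pass the test. Each is the stretch of 250 bases before a RefSeq transcription start on GRCm38.p6, 5′ to 3′ on the gene's strand, and all 10 genes were found in that table, with 17 starts. Capitals mark ACGTG and GCGTG, the core letters of the hypoxia response element that HIF proteins bind, on either strand, so that CACGT and CACGC are marked too, and a CACGTG holds 2 overlapping matches.
Gpi1, chr7:34230337-34230586, minus strand: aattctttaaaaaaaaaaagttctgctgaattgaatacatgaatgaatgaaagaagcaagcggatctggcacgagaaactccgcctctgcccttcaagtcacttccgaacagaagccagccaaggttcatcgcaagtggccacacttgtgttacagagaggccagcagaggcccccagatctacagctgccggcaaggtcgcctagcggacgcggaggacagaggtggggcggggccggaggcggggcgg
Eno1, chr4:150236458-150236707, plus strand: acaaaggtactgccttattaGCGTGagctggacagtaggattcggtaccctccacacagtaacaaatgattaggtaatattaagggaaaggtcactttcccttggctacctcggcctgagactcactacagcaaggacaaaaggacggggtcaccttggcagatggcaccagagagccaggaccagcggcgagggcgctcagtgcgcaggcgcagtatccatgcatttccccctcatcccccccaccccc
Eno1, chr4:150236947-150237196, plus strand: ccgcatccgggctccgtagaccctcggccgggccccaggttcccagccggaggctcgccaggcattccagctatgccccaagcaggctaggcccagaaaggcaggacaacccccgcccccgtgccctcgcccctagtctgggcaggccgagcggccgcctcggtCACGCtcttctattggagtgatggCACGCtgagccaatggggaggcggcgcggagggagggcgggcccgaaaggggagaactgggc
Ldha, chr7:46845554-46845803, plus strand: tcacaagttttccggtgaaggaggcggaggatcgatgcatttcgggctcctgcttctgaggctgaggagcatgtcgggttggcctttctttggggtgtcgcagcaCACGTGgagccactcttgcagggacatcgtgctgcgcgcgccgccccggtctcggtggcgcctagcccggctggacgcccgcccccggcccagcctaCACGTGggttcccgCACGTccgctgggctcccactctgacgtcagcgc
Ldha, chr7:46846832-46847081, plus strand: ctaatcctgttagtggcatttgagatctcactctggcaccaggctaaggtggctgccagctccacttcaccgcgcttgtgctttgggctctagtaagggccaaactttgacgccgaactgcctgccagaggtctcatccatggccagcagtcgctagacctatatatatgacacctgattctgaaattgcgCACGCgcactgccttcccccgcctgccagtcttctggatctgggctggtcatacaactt
Gapdh, chr6:125165774-125166023, minus strand: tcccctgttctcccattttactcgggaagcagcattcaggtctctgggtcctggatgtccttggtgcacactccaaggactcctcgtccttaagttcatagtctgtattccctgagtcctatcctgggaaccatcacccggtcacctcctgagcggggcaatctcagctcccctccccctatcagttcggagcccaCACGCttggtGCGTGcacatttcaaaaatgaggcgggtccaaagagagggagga
The Gpi1 stretch held no match, the Eno1 stretches held 1 and 2, the Ldha stretches held 5 and 1, and that of Gapdh held 2. A further Eno1 start whose stretch largely repeats the preceding one was left out. Of the 17 stretches of the 10 genes 13 held a match, or 76.5%, and the same was true of 38.6% of 32851 stretches of all genes. The 17 include several starts of 1 gene and are not independent. The stretches of all genes were not matched to them for base composition or expression level. These matches are letters in a window, not binding sites.

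The members are abundant mRNAs in E18 brain. By mean FPKM over the 12 brains, which is a level per transcript length, the order was Gapdh (75.6), Aldoa (61.8), Pgk1 (43.6), Eno1 (41.7), Tpi1 (38.1), Ldha (35.3), Pfkp (33.5), Hk1 (24.3), Gpi1 (23.7) and Aldoc (20.9). These models were above 83.2% to 96.9% of all gene models. Aldoa and Pgk1 did not overlap, since the lowest Aldoa value was 48.7 FPKM and the highest Pgk1 value 47.1 FPKM, whereas the other neighbours in this order had overlapping ranges. The second Aldoa model (ENSMUSG00000114515.2) had a mean of 1.36 FPKM and stood apart from all the others.

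Hk1 encodes the main brain hexokinase, which phosphorylates glucose on entry (ENSMUSG00000037012.18, chromosome 10 from 62268855 to 62379908, minus strand, GRCm38). Its level was 26.3, 22.5, 17.6, 21.4, 22.7 and 23.7 FPKM in ES19-4, ES19-8, ES23-4, ES23-7, ES27-1 and ES27-4, against 24.8, 24.9, 27.4, 25.0, 26.2 and 29.3 FPKM in SAC12-5, SAC12-6, SAC12-7, SAC26-5, SAC26-7 and SAC26-8. ES19-4 was the PAE brain within the SAC range, and the other 5 PAE brains were below every SAC brain. The log2 fold change was -0.23 (SE 0.0773, limma adjusted p = 0.0756), which did not pass. Without ES19-4 it was -0.28 and passed (limma adjusted p = 0.0204), in a fit where 10.3% of all genes were called lower.

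Gpi1 encodes glucose-6-phosphate isomerase, which turns glucose 6-phosphate into fructose 6-phosphate (ENSMUSG00000036427.5, chromosome 7 from 34201330 to 34230336, minus strand). In the same order of brains its level was 20.7, 21.5, 20.0, 20.6, 21.9 and 20.5 FPKM in PAE brains, against 28.1, 24.3, 27.0, 20.9, 28.8 and 29.9 FPKM in SAC brains. The PAE brains lay close together, and SAC26-5 was the SAC brain within their range. The means were 20.9 ± 0.687 FPKM in PAE and 26.5 ± 3.35 FPKM in SAC brains (SD, n = 6 each). The log2 fold change was -0.32 (SE 0.0723, limma adjusted p = 0.0246). The call was lost on leaving out ES23-4 (adjusted p = 0.0598), SAC12-5 (0.0512), SAC12-7 (0.0505), SAC26-7 (0.0580) or SAC26-8 (0.0610), while the log2 fold change stayed between -0.39 and -0.29 over the 12 brains left out in turn. In these fits 93, 161, 187, 134 and 58 of all genes were called lower, against 644 with all 12 brains.

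Pfkp encodes the platelet-type phosphofructokinase, an isozyme of the committed step (ENSMUSG00000021196.14, chromosome 13 from 6579768 to 6648777, minus strand). Its level was 24.3, 36.3, 29.3, 30.0, 29.5 and 30.5 FPKM in PAE brains, against 37.0, 32.8, 35.0, 27.7, 42.0 and 47.2 FPKM in SAC brains. The groups overlapped, with ES19-8 among the SAC brains and SAC26-5 among the PAE brains. The log2 fold change of -0.28 (SE 0.116, limma adjusted p = 0.130) did not pass. It passed without SAC26-5 (-0.36, limma adjusted p = 0.0496), where 5.05% of all genes were called lower.

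Aldoa and Aldoc encode aldolases, which split fructose 1,6-bisphosphate into the 2 triose phosphates, and Aldoc is the form known from astrocytes and Purkinje cells. The main Aldoa model (ENSMUSG00000030695.16, chromosome 7 from 126795234 to 126800751, minus strand) had 62.5, 54.2, 50.1, 66.5, 53.6 and 48.7 FPKM in PAE brains, against 68.9, 61.1, 66.0, 61.1, 71.4 and 76.9 FPKM in SAC brains. ES19-4 and ES23-7 were within the SAC range and the other 4 PAE brains below it, and the log2 fold change of -0.27 (SE 0.0808, limma adjusted p = 0.0504) lay just outside the threshold. It passed without ES19-4 (limma adjusted p = 0.0234), ES23-7 (0.0349), SAC12-6 (0.0499) or SAC26-5 (0.0467). The share of all genes called lower was 3.33% without ES23-7 and 4.2% without SAC12-6.

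Aldoc (ENSMUSG00000017390.15, chromosome 11 from 78322968 to 78327781, plus strand) had 26.1, 17.6, 16.4, 12.5, 17.5 and 15.5 FPKM in PAE brains, against 24.5, 19.4, 24.4, 21.8, 24.8 and 29.7 FPKM in SAC brains. It had the largest negative log2 fold change of the 11 models, -0.45, and also the largest SE, 0.138 (limma adjusted p = 0.0553). ES19-4 had the highest Aldoc level of the PAE brains and SAC12-6 the lowest of the SAC brains. Without ES19-4 Aldoc passed at -0.57 (limma adjusted p = 0.00484), as it did without SAC12-6 at -0.51 (0.0474). The second Aldoa model (chromosome 7 from 126800790 to 126809108) was the single model with a positive difference, 0.22 (limma adjusted p = 0.201), at 1.05 to 2.34 FPKM in PAE and 1.07 to 1.33 FPKM in SAC brains.

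Tpi1 encodes triosephosphate isomerase, which interconverts the triose phosphates (ENSMUSG00000023456.14, chromosome 6 from 124810586 to 124814296, minus strand). Its level was 43.4, 34.4, 34.3, 31.6, 33.5 and 30.3 FPKM in PAE brains, against 42.0, 43.3, 38.0, 37.0, 45.3 and 44.0 FPKM in SAC brains. ES19-4 lay among the SAC brains and the other 5 PAE brains lay below all of them. The log2 fold change was -0.27 (SE 0.0788, limma adjusted p = 0.0507), and it passed without ES19-4 (-0.33, limma adjusted p = 0.00413) or SAC26-5 (-0.30, 0.0417).

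Gapdh and Pgk1 encode the enzymes that oxidise glyceraldehyde 3-phosphate and recover the first ATP, and neither passed. Gapdh (ENSMUSG00000057666.18, chromosome 6 from 125161715 to 125166467, minus strand) had 83.7, 74.0, 78.6, 54.7, 77.4 and 76.9 FPKM in PAE brains, against 75.6, 77.0, 74.2, 80.6, 75.9 and 78.9 FPKM in SAC brains. ES23-7 was far below every other brain. The log2 fold change was -0.06 (95% interval -0.24 to 0.11, limma adjusted p = 0.635), and without ES23-7 it turned to 0.02 (0.757). Gapdh has 71 near-identical copies among annotated genes, 68 of them pseudogenes, so reads may be shared.

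Pgk1 encodes phosphoglycerate kinase 1 (ENSMUSG00000062070.12, chromosome X from 106187100 to 106203699, plus strand). It had 44.8, 40.7, 44.0, 42.0, 39.8 and 41.9 FPKM in PAE brains, against 46.6, 44.5, 43.3, 41.9, 47.1 and 46.1 FPKM in SAC brains. The groups overlapped, and the log2 fold change was -0.09 (95% interval -0.17 to -0.00063, limma adjusted p = 0.173).

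Eno1 encodes enolase 1, which forms phosphoenolpyruvate (ENSMUSG00000063524.13, chromosome 4 from 150236721 to 150248879, plus strand). Its level was 41.5, 37.0, 36.9, 35.3, 35.0 and 36.9 FPKM in PAE brains, against 46.7, 53.1, 53.1, 39.4, 42.4 and 43.4 FPKM in SAC brains. SAC12-6 and SAC12-7 were the highest, and the overlap came from ES19-4, the highest PAE brain, and SAC26-5, the lowest SAC brain. The means were 37.1 ± 2.33 FPKM in PAE and 46.4 ± 5.73 FPKM in SAC brains (SD, n = 6 each), with a log2 fold change of -0.31 (SE 0.0729, limma adjusted p = 0.0274). The call was lost on leaving out ES23-4 (adjusted p = 0.0610), ES27-1 (0.0518), SAC12-5 (0.0545), SAC12-7 (0.0548) or SAC26-8 (0.0556). A near-identical coding copy, Eno1b, was at 6.96 to 9.07 FPKM in PAE and 7.80 to 9.83 FPKM in SAC brains (log2 fold change -0.10, limma adjusted p = 0.344), and how reads were split between the copies is not known.

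Ldha encodes the A subunit of lactate dehydrogenase, the form known for reducing pyruvate to lactate (ENSMUSG00000063229.15, chromosome 7 from 46841475 to 46855627, plus strand). Its level was 33.1, 34.2, 34.0, 34.8, 31.2 and 30.8 FPKM in PAE brains, against 37.6, 36.3, 37.9, 34.8, 38.4 and 40.0 FPKM in SAC brains. ES23-7 and SAC26-5 met at 34.8 FPKM, and otherwise the PAE brains lay below the SAC brains. The means were 33.0 ± 1.66 FPKM in PAE and 37.5 ± 1.79 FPKM in SAC brains (SD, n = 6 each), with a log2 fold change of -0.18 (SE 0.0426, limma adjusted p = 0.0279). The call was lost on leaving out ES23-4 (adjusted p = 0.0561), ES27-1 (0.0535), ES27-4 (0.0544), SAC12-5 (0.0548), SAC12-7 (0.0566), SAC26-7 (0.0624) or SAC26-8 (0.0701).

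**Figure D2:**
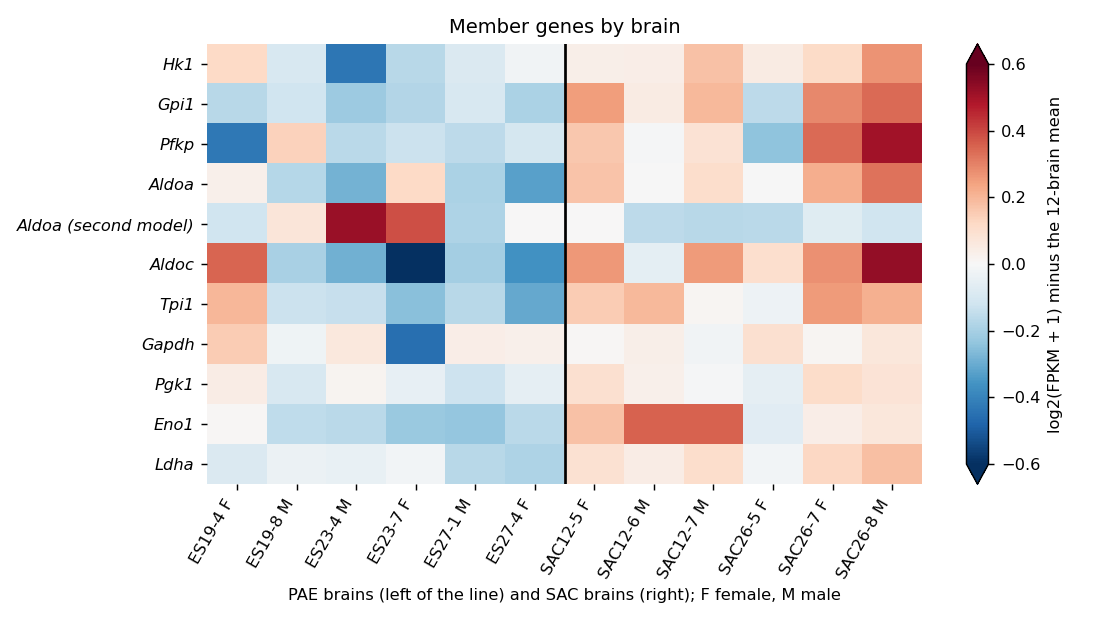
log2(FPKM + 1) of each gene model minus its mean over the 12 brains (colour, red above and blue below) in the 6 PAE brains (left of the line) and the 6 SAC brains (right). SAC26-8 is the highest brain for 6 of the 10 main models, ES19-4 is red for Aldoc, Tpi1 and Hk1, and SAC26-5 is blue for Gpi1 and Pfkp.

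The brains differed in how many members followed their treatment. Among the 10 main models the median rank, counting from the lowest of 12 brains, was 2.5 to 5 in the PAE brains other than ES19-4, whose median rank was 8. In SAC brains it was 6 in SAC26-5, 7.5 in SAC12-6 and 8 to 12 in the other 4. The summed FPKM of the members was 352 to 408 in PAE and 391 to 466 in SAC brains, with ES19-4 as the highest PAE brain and SAC26-5 as the lowest SAC brain. ES19-4 was above the other 5 PAE brains in 6 of the 11 models, Hk1, Aldoc, Tpi1, Gapdh, Pgk1 and Eno1, and SAC12-6 was below the other 5 SAC brains in Aldoc alone. For Gpi1 and Ldha ES19-4 lay within the range of the other PAE brains and SAC12-6 within that of the other SAC brains.

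Leaving out ES19-4 and SAC12-6 together, a choice made after seeing the data, 7 members were called lower by limma, namely Gpi1, Eno1, Ldha, Aldoc, Tpi1, Hk1 and the main Aldoa model, with adjusted p between 0.00372 and 0.0265. In that fit 9.34% of all genes were called lower, so calls increased across the table. With the Hox level of each brain as a covariate none of the members was called. In the brains other than ES19-4 and SAC12-6 the Hox level went with the treatment, so the estimates of this fit lean heavily on that pair. With the covariate the log2 fold change was -0.30 for Eno1, -0.26 for Gpi1 and -0.15 for Ldha (limma adjusted p = 0.262, 0.272 and 0.286), and -0.16 each for Aldoc and Tpi1. No gene of the table was called in that fit. On the means of each name prefix (3 PAE and 2 SAC prefixes) no member and no gene of the table was called by limma. The prefixes of a treatment hold equal numbers of brains, so the log2 fold changes are the same by construction.

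**Figure D3:**
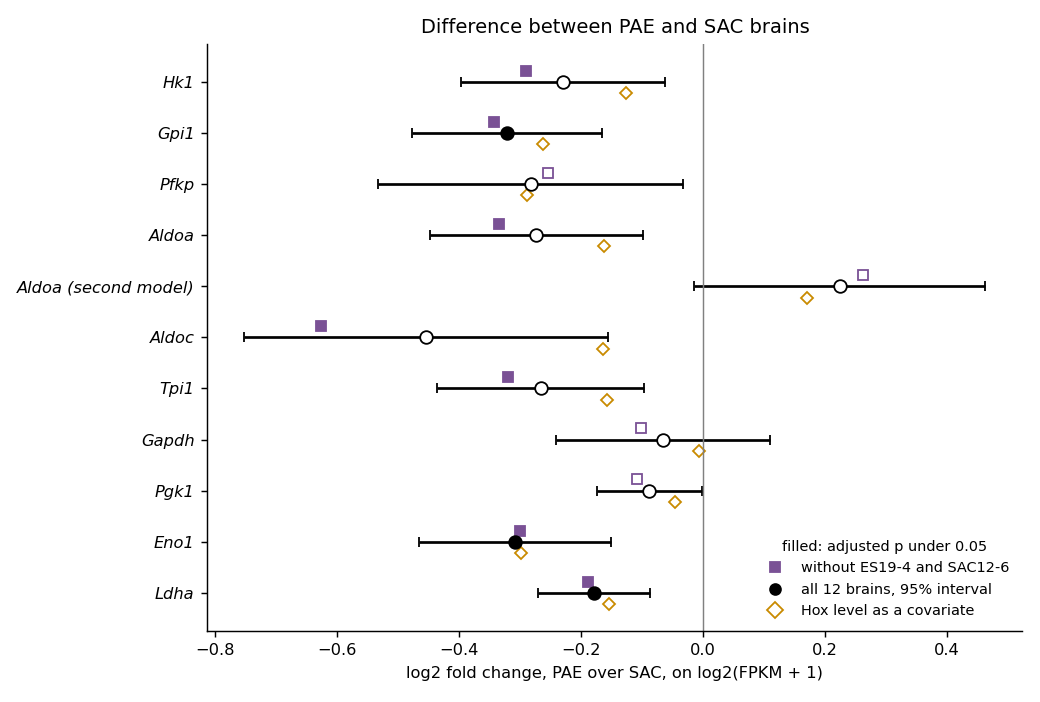
log2 fold change of PAE over SAC on log2(FPKM + 1) (horizontal axis) for each gene model, with black circles and 95% intervals for all 12 brains, purple squares without ES19-4 and SAC12-6, and ochre diamonds with the Hox level as a covariate, filled where the adjusted p is under 0.05. With the covariate Eno1 and Pfkp are at -0.30 and -0.29, and Aldoc is at -0.16, against -0.45 without it. The estimates with the covariate lean heavily on ES19-4 and SAC12-6.

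The summed level of astrocyte markers was lower in the PAE brains other than ES19-4. Over 9 astrocyte genes, none of which was under 1 FPKM in all brains, 4 fell and none rose (limma), with a median log2 fold change of -0.37, and their summed level was 229 to 424 FPKM in PAE and 388 to 491 FPKM in SAC brains. Among all genes 5.22% fell and 4.34% rose. The highest PAE sum was that of ES19-4 and the other 5 PAE brains were below every SAC brain. Sparcl1 and Apoe make up 48.2% and 34.8% of the summed FPKM. Taken singly, ES19-4 was the highest PAE brain in 6 of the 9 genes, not in Fgfr3, Gjb6 or Gfap, and the other 5 PAE brains were below every SAC brain in 4, Aldh1l1, Apoe, Aqp4 and Sparcl1. The part of these cells in the results for the glycolytic genes was not tested. Of 6 neuronal markers none passed, of 5 neural progenitor markers 1 rose, of 6 endothelial markers 1 fell, and of the tested red blood cell (6), pericyte (4), meningeal (5) and microglial (4) markers none passed. The skeletal muscle markers in the table summed to 1.15 to 2.14 FPKM in PAE and 2.18 to 2.75 FPKM in SAC brains. The summed level of the red blood cell list was 1625 to 3441 FPKM in PAE and 1773 to 3040 FPKM in SAC brains.

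The sexes were then compared, the question being whether the difference was present in males and in females. In males 0 members passed the adjusted threshold, with 4 genes of the table or 0.0324%, and 7 of 11 models were lower at an unadjusted p under 0.05, against 9.9% of all genes. The smallest p was that of Eno1, which was at 35.0 to 37.0 FPKM in male PAE and 43.4 to 53.1 FPKM in male SAC brains, with a log2 fold change of -0.44 (SE 0.0910, limma adjusted p = 0.112). All 3 male PAE brains were below all 3 male SAC brains in 7 of the 11 models, and in 16.3% of all genes. Aldoc had the largest log2 fold change in males, -0.47 (limma adjusted p = 0.257), and that of Hk1 was -0.37 (0.120).

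In females 0 members passed, as was true of every gene (0.0%), and 2 of 11 models, Gpi1 at -0.31 and Ldha at -0.16, were lower at an unadjusted p under 0.05, against 7.59% of all genes. Across the table limma gave 826 higher and 937 lower genes at an unadjusted p under 0.05 in females. Without ES19-4, which is 1 of 3 PAE females, Aldoc (-0.72, limma adjusted p = 0.0380) and Tpi1 (-0.41, 0.0395) passed in the comparison PAE vs SAC in females, where 2.45% of all genes were then called lower, against none with ES19-4. The median over the 11 models was -0.28 in males and -0.17 in females.

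The difference between these effects was tested as an interaction of sex and treatment. None of the 11 models passed in limma at an adjusted p under 0.05, and 1 gene of the table, 0.0081%, did. At an unadjusted p under 0.05 none of the 11 models passed either. At that threshold 314 genes of the table had a positive interaction and 174 a negative one. The largest interactions were those of Hk1, at -0.28 (95% interval -0.59 to 0.04), and Eno1, at -0.27 (-0.55 to 0.01), each with a limma adjusted p of 1.0, so an effect that differs between sexes was not detectable here. Between female and male brains over both treatments none of the 11 models passed at either threshold, against 0.0324% of genes at the adjusted one, and the log2 fold changes of female over male ran between -0.13 (Pfkp) and 0.07 (Aldoa).

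The transcript table separates the isoforms of each gene. None of 20937 tested transcripts passed (0.0%), with 1476 higher and 1676 lower, or 8.0%, at an unadjusted p under 0.05 from limma. Hk1-205, Gpi1-201, Aldoa-201, Aldoc-201 and Tpi1-205 were the transcripts of the members that were lower at that threshold, and none was higher. Among the members' transcripts Gpi1-201 alone had all 6 PAE brains below all 6 SAC brains, as did 1.03% of all transcripts. It had 24.1, 23.2, 19.4, 17.1, 20.8 and 19.6 FPKM in PAE brains, against 27.8, 24.6, 28.7, 24.5, 27.8 and 28.3 FPKM in SAC brains, with a log2 fold change of -0.37 (limma adjusted p = 0.0892). In ES23-7 a further isoform, Gpi1-205, was at 21.6 FPKM, while it was at 0.290 to 1.27 FPKM in the other 11 brains.

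Eno1 was split between Eno1-202 and Eno1-201. Eno1-202 had 102, 66.7, 65.0, 66.4, 83.5 and 88.4 FPKM in PAE brains, against 91.3, 46.8, 45.8, 102, 76.2 and 81.6 FPKM in SAC brains. Eno1-201 had 7.23, 31.9, 32.6, 27.2, 7.93 and 8.88 FPKM in PAE brains, against 32.9, 98.5, 99.6, 1.01, 36.2 and 33.7 FPKM in SAC brains. SAC12-6 and SAC12-7, which had the highest Eno1 gene values, also had the highest Eno1-201 and the lowest Eno1-202. Eno1-202 differed by 0.13 and Eno1-201 by -0.88 on the log2 scale, with limma adjusted p of 0.817 and 0.680.

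**Figure D4:**
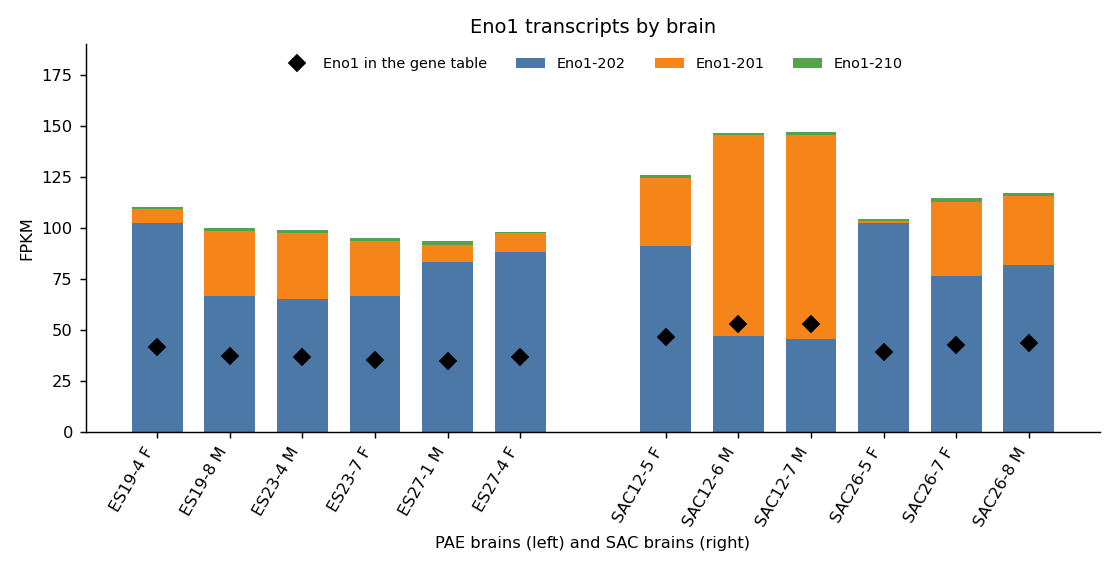
FPKM of the 3 listed Eno1 transcripts stacked for each brain (bars, vertical axis from 0), with the Eno1 value of the gene table as black diamonds, PAE brains left and SAC brains right. Eno1-201 (orange) makes up most of the bar in SAC12-6 and SAC12-7, at 98.5 and 99.6 FPKM, and is at 1.01 FPKM in SAC26-5.

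Eno1 kept its call when the listed transcripts of each gene were summed, at 93.7 to 110 FPKM in PAE and 104 to 147 FPKM in SAC brains (log2 fold change -0.33, limma adjusted p = 0.0426). Of all summed genes 2.47% were called lower. Hk1 gained a call (-0.32, 0.0439), with sums of 34.8 to 52.2 FPKM in PAE brains below all of those in SAC brains, 52.6 to 59.9 FPKM, a pattern that 1.59% of summed genes had. Its leading transcript Hk1-202 averaged 42.5 FPKM in PAE and 43.3 FPKM in SAC brains (-0.03, limma adjusted p = 0.948). The other, Hk1-205, averaged 2.55 FPKM in PAE and 12.8 FPKM in SAC brains (-2.40, limma adjusted p = 0.162). It was at 13.1 FPKM in ES19-8 and 0.508 FPKM in SAC26-8. Gpi1 and Ldha lost their calls on the sums, at -0.17 (0.454) and -0.16 (0.277). For Ldha the isoform Ldha-213 was at 32.8 FPKM in ES23-4 and 32.3 FPKM in SAC12-7, and at 0.659 to 2.38 FPKM in the other brains. The listed Pfkp transcripts summed to 3.33 to 5.30 FPKM in PAE and 3.94 to 28.0 FPKM in SAC brains, under the gene values of 24.3 to 36.3 FPKM in PAE and 27.7 to 47.2 FPKM in SAC brains. The tables are not on 1 scale, since the sums exceeded the gene values in the other main models. In PAE brains the mean sum was 213 FPKM for Gapdh, 99.4 FPKM for Eno1 and 45.0 FPKM for Hk1, against mean gene values of 74.2, 37.1 and 22.4 FPKM.

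The share of the leading transcript in the sum of its gene was compared in the 9 genes with more than 1 listed transcript, and no difference passed the exact permutation test after adjustment over the 9. The widest gap was that of Hk1-202, at 94.7% ± 10.6 in PAE and 77.1% ± 11.8 in SAC brains (SD, n = 6 each, exact permutation p = 0.0455, adjusted p = 0.409, two-sided). Eno1-202 followed at 79.0% ± 12.8 in PAE and 61.6% ± 25.8 in SAC brains (exact permutation adjusted p = 0.597).

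Ratios between isozymes ask whether the forms of 1 step moved together. Of 6 ratios of (FPKM + 1), that of Ldhb to Ldha passed. Ldhb encodes the subunit known for favouring lactate oxidation, and the ratio was 2.64, 2.19, 2.59, 2.32, 2.66 and 2.45 in PAE brains, against 2.16, 2.08, 2.11, 2.24, 2.09 and 2.0 in SAC brains. It was above the highest SAC value in 5 of 6 PAE brains, ES19-8 being the exception, and the log2 difference was 0.23 (exact permutation p = 0.00433, adjusted p = 0.0260 over the 6 ratios, two-sided). The ratio holds Ldha, which was called above. Ldhb itself was at 76.0 to 89.7 FPKM in PAE and 76.4 to 82.2 FPKM in SAC brains (log2 fold change 0.05, limma adjusted p = 0.513). Leaving out SAC12-5, SAC12-6, SAC12-7, SAC26-7 or SAC26-8 raised the adjusted p to 0.0519, with the log2 difference between 0.21 and 0.23.

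The other 5 ratios did not pass. The log2 difference of Aldoc over Aldoa was -0.18 (exact permutation adjusted p = 0.353), with the lowest ratio, 0.200, in ES23-7 and the highest, 0.427, in ES19-4. Without ES19-4 it was -0.26 and passed (exact permutation adjusted p = 0.0390), and without ES23-7 it was -0.04 (0.582). That of Eno2 over Eno1 was -0.06 (0.513), that of Hk2 over Hk1 0.24 (0.229), that of Pfkp over the sum of Pfkl and Pfkm -0.22 (0.229) and that of the glucose transporters Slc2a3 over Slc2a1 -0.13 (0.353), all from the exact permutation test.

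**Figure D5:**
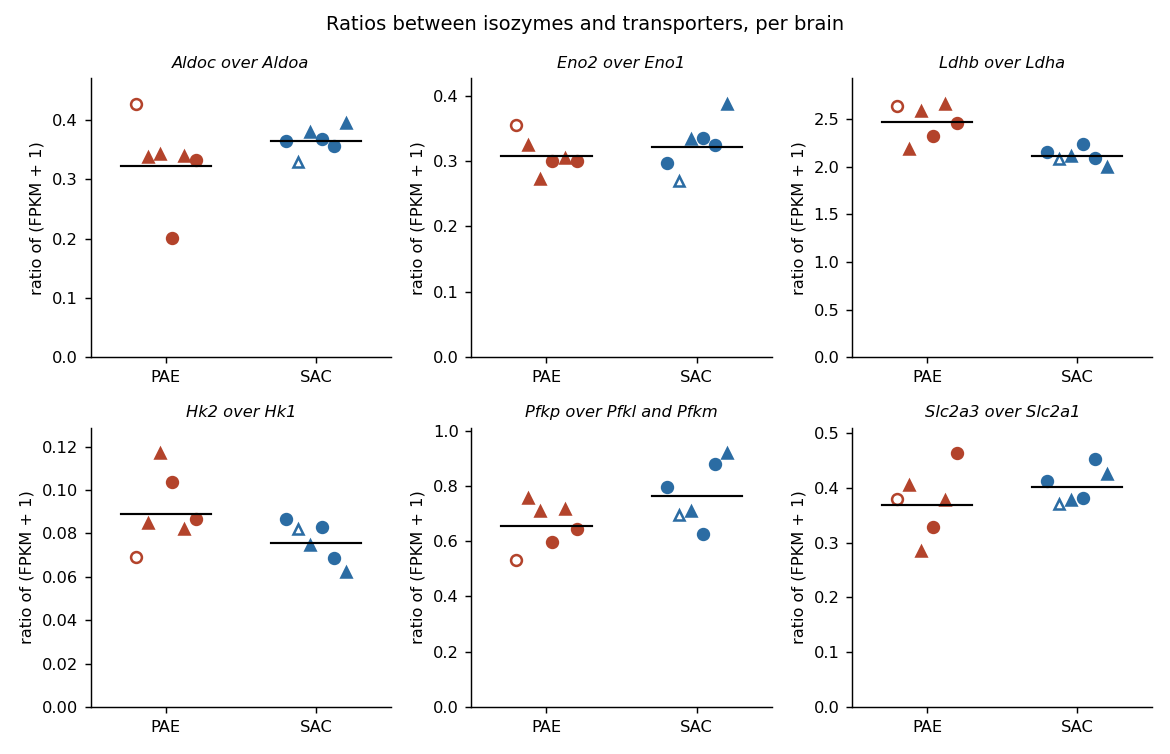
Ratios of (FPKM + 1) between isozymes and between glucose transporters (vertical axes, from 0) in the 6 PAE brains (left, red) and the 6 SAC brains (right, blue), with circles for females, triangles for males, open symbols for ES19-4 and SAC12-6, and a line at the geometric mean. The ratio of Ldhb to Ldha has a geometric mean of 2.47 in PAE and 2.11 in SAC brains.

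The remaining glycolytic genes were mixed. Of 10 tested genes for other isozymes and steps, 2 fell, none rose and 8 did not pass (limma). Among all genes 5.22% fell and 4.34% rose. Eno2, the neuronal enolase, was at 9.33 to 14.1 FPKM in PAE and 12.5 to 17.0 FPKM in SAC brains (log2 fold change -0.37, limma adjusted p = 0.0355), with ES19-4 the highest PAE brain. Pgam1, which moves the phosphate of 3-phosphoglycerate, was at 55.8 to 68.4 FPKM in PAE and 62.8 to 76.0 FPKM in SAC brains (-0.21, 0.0356), again with ES19-4 the highest PAE brain. Pkm, the pyruvate kinase of most tissues, was at 59.8 ± 1.62 FPKM in PAE and 58.1 ± 2.03 FPKM in SAC brains (SD, n = 6 each), with a log2 fold change of 0.04 (95% interval -0.03 to 0.11). Pfkm and Hk2 were at 0.00 and 0.01, and Pfkl, at -0.19, lay just outside the threshold (limma adjusted p = 0.0508).

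Beyond glycolysis, none of 6 tested glucose and lactate transporters and none of 8 tested regulators of flux passed in limma. At an unadjusted p under 0.05 1 gene of each list was lower, namely Slc2a3, the neuronal glucose transporter, at -0.26 (limma adjusted p = 0.0859), and Pdk1, a kinase that inhibits pyruvate dehydrogenase, at -0.16 (0.137). Of 5 pyruvate dehydrogenase genes 1 fell, against 5.22% of all genes. This gene was Pdha1, the catalytic E1 alpha subunit, at 48.1, 44.6, 42.8, 42.7, 42.4 and 41.9 FPKM in PAE brains, against 49.8, 48.2, 50.3, 48.9, 49.1 and 51.1 FPKM in SAC brains, without overlap (-0.18, limma adjusted p = 0.0207). All PAE brains were below all SAC brains in 1.92% of all genes. Of 7 pentose phosphate genes 1 rose, G6pdx, the entry enzyme of that pathway, at 21.5 ± 1.07 FPKM in PAE and 19.1 ± 1.27 FPKM in SAC brains (SD, n = 6 each, log2 fold change 0.16, limma adjusted p = 0.0497). The share of all genes that rose was 4.34%. Of 8 tested genes of gluconeogenesis, glycogen and serine synthesis none passed in limma and 3 were lower at an unadjusted p under 0.05. At that unadjusted threshold 14.8% of all genes were lower.

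Of 14 tested hypoxia targets and regulators outside glycolysis, 2 fell and 1 rose, with a median log2 fold change of 0.00. Among all genes 5.22% fell and 4.34% rose. Adm, the vasodilator peptide adrenomedullin, was at 1.29, 1.12, 0.848, 1.22, 0.964 and 0.351 FPKM in PAE brains, against 1.88, 1.5, 2.06, 2.24, 1.43 and 1.71 FPKM in SAC brains, without overlap (-0.52, limma adjusted p = 0.0260). All PAE brains were below all SAC brains in 1.92% of all genes. Adm is near the floor, with a PAE mean of 0.965 FPKM. It reached the filter of 1 FPKM only through the SAC brains, where it is higher. Bnip3, a mitophagy receptor, was at 19.1 ± 1.54 FPKM in PAE and 23.1 ± 1.53 FPKM in SAC brains (SD, n = 6 each, -0.26, limma adjusted p = 0.0221). Ndrg1 rose, at 13.9 ± 0.790 FPKM in PAE and 11.7 ± 1.48 FPKM in SAC brains (SD, n = 6 each, 0.24, limma adjusted p = 0.0489). Hif1a and Vegfa were at -0.03 and -0.08 and did not pass.

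Within treatments the members did not vary as 1 block. After centring log2(FPKM + 1) within each treatment, the Pearson r between the 45 pairs of the 10 main models ran from -0.46 to 0.80 over 12 brains, with a median of 0.33, and 38 were above 0. The highest was that of Gpi1 and Pfkp, and these were the only members found among each other's 50 most similar genes. The single most similar gene of the table was Txndc11 for Gpi1 (r = 0.94), Zc2hc1a for Eno1 (0.90), Nktr for Ldha (0.90), Chrm2 for Aldoc (0.98), Casp9 for Gapdh (0.97), Gnl1 for the main Aldoa model (0.96), Kifc5b for the second (0.93), Kcne1l for Tpi1 (0.94), Ogfod3 for Pgk1 (0.90), Ssh3 for Pfkp (0.94) and Lonrf2 for Hk1 (0.94). These values describe 12 brains and the best of 12345 genes each, and they share the libraries.

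Several members overlap a gene on the opposite strand in GENCODE M21. Both Aldoa models overlap Fam57b, which was at 19.1 to 25.0 FPKM in PAE and 20.6 to 24.6 FPKM in SAC brains (log2 fold change 0.04, limma adjusted p = 0.696). The overlaps of Pfkp with Pitrm1, Gapdh with Iffo1 and Tpi1 with Spsb2 lie at their ends, and Gpi1 and Hk1 overlap non-coding genes. The libraries were made with a stranded kit, and the sources used here do not say whether strand was used in the quantification.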

How the data were processed

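Poly-A RNA of 12 E18 whole brains (1 µg total RNA, stranded Kapa libraries) was sequenced by the authors as 150 bp paired reads on an Illumina instrument. Per the study's methods, reads were checked with FastQC, trimmed with cutadapt, aligned with HISAT2, transcript abundance was estimated with StringTie and FPKM was calculated with Ballgown. No version of these tools was stated there. FPKM per gene and per transcript were deposited, with no counts, so count models were not used. The build is named GRCm28 in the methods, and gene loci matched GRCm38 (GENCODE M21) for 12077 of 13770 gene models, with all members but Tpi1 among them.

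Values were log2(FPKM + 1). This scale understates changes of low genes. The 12346 genes whose mean reached 1 FPKM were tested with limma 3.58.1 in R 4.3.3 (empirical Bayes with trend, Benjamini-Hochberg over all genes, threshold 0.05), PAE against SAC over 12 brains, and in a fit of 4 sex and treatment groups. Isozyme ratios and transcript shares were tested by exact permutation over 924 splits, two-sided. The limma fit was checked on simulated data, and the permutation test on made-up separated and interleaved values. Near-identical copies (95% identity over 50% of the leading transcript) were sought with BLAST+ 2.17.0 in GENCODE M21 transcripts. Promoters were RefSeq sequences on GRCm38.p6.

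Groups came from the treatment and sex given in the labels. The named genes were the 10 members, genes of other lists that passed, the partners in ratios, and the gene most correlated with each member. Pkm, Pdk1, Hif1a, Vegfa, the astrocyte markers named without passing, and the overlapping or copied genes lie outside that rule and were named after their values were seen. The members and lists were chosen with earlier results of these data known. Alternatives covered the pseudocount (0.1, 0.01), the filter (0.1 FPKM or none), scaling, sex, name prefix, library weights, the Hox level, a permutation test per gene, transcript sums and each library left out.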

Additional observations from a re-analysis of the deposited data

Results flagged for a closer look

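In groups of 6 brains a value was listed where its gap to the nearest brain took up more than 0.625 of the range of its group. Of 52 groups checked 10 were listed, and chance lists about 1 in 20 groups.

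Among gene levels, ES19-4 stood above the other PAE brains in Aldoc (26.1 FPKM), Tpi1 (43.4 FPKM) and Eno1 (41.5 FPKM), and ES23-7 stood below them in Gapdh (54.7 FPKM). ES19-4 is the PAE brain with Hox expression, at 4.32 FPKM on average. ES23-7 also had the lowest sum of gene FPKM, 218026.

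Among shares of the leading transcript, ES19-8 was low for Hk1-202 (73.1%), ES23-7 was low for Gpi1-201 (42.1%) and Aldoa-201 (82.4%), SAC12-6 was low for Pfkp-207 (9.68%), ES19-4 was high for Tpi1-205 (96.9%) and ES27-1 was high for Gapdh-203 (99.3%). In ES23-7 Gpi1-205 was at 21.6 FPKM and in SAC12-6 Pfkp-201 was at 24.9 FPKM. What lies behind these values was not tested.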

How the results depend on the processing

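For PAE vs SAC, 1180 genes were called in all. The count was 550 with sums of transcripts, 2120 without ES19-4 and SAC12-6 (chosen after seeing the data), 0 on the means of each name prefix (960 higher and 1076 lower at an unadjusted p under 0.05) and 0 with the Hox level as a covariate (725 higher and 811 lower at an unadjusted p under 0.05, limma). It ran from 124 to 2385 with 1 library left out, lowest without SAC26-8 and highest without ES19-4. In males 4 genes were called, 2 with a pseudocount of 0.1 or 0.01, a filter at 0.1 FPKM, no filter or quantile normalization, 9 in a fit of the 6 male libraries, and 0 to 43 with 1 library left out. In females the count was 0, or 1 with quantile normalization, and 0 to 471 with 1 library left out. The interaction had 1 gene, with a range of 1 to 3, and female vs male 4, with a range of 4 to 7.

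Of the members, Gpi1, Eno1 and Ldha kept their calls under both pseudocounts, both filters, both scalings, sex as a covariate, the prefix as a random block and library weights, and lost them in the permutation test per gene (adjusted p = 0.0694, 0.0619 and 0.0619), where 0 genes passed. Main Aldoa was called after median-of-ratios scaling (0.0472) and Tpi1 after quantile normalization (0.0404), and library weights added Aldoc, Tpi1, Hk1 and main Aldoa. Of 12346 genes 644 were called lower in the main fit. The count was 623 with median-of-ratios scaling and 601 with quantile normalization. With library weights it was 959, so calls increased across all genes. The Gapdh difference ranged between -0.10 and 0.019 on the log2 scale with 1 library left out, above 0 without ES23-7. With 1 library left out, the log2 difference of Ldhb over Ldha was 0.20 to 0.26 and that of Aldoc over Aldoa was between -0.26 and -0.043. The differences of leading transcript shares, none of which passed, changed sign with single libraries for Pfkp (-8.61 to 6.65 percentage points), Aldoc (-2.38 to 1.12), Ldha (-3.59 to 2.16), Aldoa (-0.94 to 0.70) and Tpi1 (-0.41 to 0.48). No paired analysis was possible because the labels give the treatments no shared replicate numbers. Shared dams were not given, and read depth is unknown, so the precision of single FPKM values could not be stated.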
